A study of Mus musculus with 45 samples.

Results

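Glucocorticoid signalling was represented by 10 genes, which were followed in RNA-seq libraries of mouse medial prefrontal cortex after water or ethanol drinking. They are both corticosteroid receptor genes, Nr3c1 and Nr3c2, and 8 genes known as targets of these receptors, Fkbp5, Sgk1, Tsc22d3, Zbtb16, Pdk4, Cdkn1a, Errfi1 and Sult1a1. They were listed by name and not by a rule on measured values, though earlier results of these data were known. All 10 were found among the 24421 gene symbols counted in each library. Every one of them had counts in every library and passed the low-count filter of every comparison.

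The libraries came from 24 C57BL/6J mice. Water mice had water for 72 days, and ethanol mice had 15% (v/v) ethanol on alternate days over the same time and death followed 24 h after their final day of drinking. From each suspension of minced cortex, 5% was kept as the total homogenate. The rest was dissociated with enzyme, cleared of myelin on 25% Percoll and passed over beads against ACSA2, a surface antigen of astrocytes. The 44 libraries used here are 12 homogenates and 10 isolated fractions from water mice (groups C_TH and C_AS), and 12 homogenates and 10 isolated fractions from ethanol mice (E_TH and E_AS). Both fractions were at hand for 20 mice. The labels give neither sex nor age.

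Corticosterone, the main glucocorticoid of the mouse, acts through a pair of nuclear receptors. The mineralocorticoid receptor (Nr3c2) binds it with high affinity and is largely occupied at resting hormone levels, and the glucocorticoid receptor (Nr3c1) is filled during stress and at the daily peak. Without hormone the glucocorticoid receptor sits in the cytoplasm in a complex with HSP90 and co-chaperones, and with hormone it enters the nucleus and binds glucocorticoid response elements, imperfect palindromes near its target genes. Its targets include brakes on its own action, and withdrawal from ethanol is known as a stimulus of the adrenal stress axis.

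Depth and cell content set how these genes can be read. Total gene counts ran from 3673811 to 9109247 in the homogenates and from 504492 to 3248804 in the isolated fractions, where 5 libraries of water mice and 0 of ethanol mice had fewer than 1000000. The label of the isolated fraction is astrocyte, and 10 of 13 astrocyte markers were higher there than in homogenate in water mice by edgeR's quasi-likelihood test. So were 11 of 11 oligodendrocyte, 10 of 10 microglia, 10 of 10 endothelial and 9 of 9 mural cell markers, while 12 of 12 neuronal markers were lower. The summed astrocyte markers were at 9726 to 28901 CPM (counts scaled to 1000000 gene counts per library) in the isolated fractions and at 9139 to 12485 CPM in the homogenates. The fraction is therefore called isolated cells below.

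Where the genes lie is given on mm10, the build named by the submitters, from the GENCODE annotation of the same build. Nr3c2 is at chr8:76899442-77245012 on the plus strand, Fkbp5 at chr17:28399094-28517527 on the minus strand, Sgk1 at chr10:21882184-21999903 on the plus strand and Tsc22d3 at chrX:140539528-140600659 on the minus strand. Zbtb16 is at chr9:48654297-48836222 on the minus strand, Pdk4 at chr6:5483351-5496309 on the minus strand, Cdkn1a at chr17:29090976-29100727 on the plus strand, Errfi1 at chr4:150853919-150868892 on the plus strand and Sult1a1 at chr7:126672865-126676432 on the minus strand. Exons of Nr3c2, Cdkn1a and Sult1a1 overlap those of another gene on the opposite strand (Gm10649, AC167363.2 and Sgf29). The sources used here do not say whether counting used strand, and these 3 genes may hold counts of their neighbours.

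Promoters of 8 of the 10 genes are in the RefSeq promoter table of build GRCm38.p6, and 17 windows of 250 bases before a start were searched on both strands. The full element sought was AGAACA, any 3 bases, then TGTTCT. It was present in 3 of 32851 windows of all genes (0.00913%), and 1 of these belongs to Sgk1, with 174 bases between the element and the start. With at most 2 mismatches in the 12 fixed letters it was present in 1.56% of all windows, among them windows of Sgk1 and Sult1a1, where 19 bases separate it from the start. The 6-letter arm alone, TGTTCT or AGAACA, which the full element contains, was in 16.1% of all windows and in windows of Sgk1, Sult1a1 and Tsc22d3. The sequences below show the 3 genes with a match and, for contrast, Fkbp5, whose single window held none. Capitals mark the matches, each sequence is written 5′ to 3′ on the gene's strand, and a match describes letters, not binding.
Sgk1 (chr10:21993640-21993889, plus strand): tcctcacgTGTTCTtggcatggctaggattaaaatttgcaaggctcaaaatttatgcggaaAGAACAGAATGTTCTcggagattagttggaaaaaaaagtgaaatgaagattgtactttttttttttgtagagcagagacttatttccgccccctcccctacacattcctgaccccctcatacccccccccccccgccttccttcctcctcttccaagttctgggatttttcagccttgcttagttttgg
Sult1a1 (chr7:126676419-126676668, minus strand): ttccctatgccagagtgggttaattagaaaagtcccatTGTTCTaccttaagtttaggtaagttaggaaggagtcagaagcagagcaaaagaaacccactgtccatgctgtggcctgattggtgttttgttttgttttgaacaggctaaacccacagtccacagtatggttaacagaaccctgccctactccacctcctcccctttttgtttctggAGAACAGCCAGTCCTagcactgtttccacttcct
Tsc22d3 (chrX:140600523-140600772, minus strand): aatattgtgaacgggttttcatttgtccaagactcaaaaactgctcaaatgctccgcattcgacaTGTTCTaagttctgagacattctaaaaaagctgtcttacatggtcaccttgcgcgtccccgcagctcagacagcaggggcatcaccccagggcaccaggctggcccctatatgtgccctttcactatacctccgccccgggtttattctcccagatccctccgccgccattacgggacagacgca
Fkbp5 (chr17:28486150-28486399, minus strand): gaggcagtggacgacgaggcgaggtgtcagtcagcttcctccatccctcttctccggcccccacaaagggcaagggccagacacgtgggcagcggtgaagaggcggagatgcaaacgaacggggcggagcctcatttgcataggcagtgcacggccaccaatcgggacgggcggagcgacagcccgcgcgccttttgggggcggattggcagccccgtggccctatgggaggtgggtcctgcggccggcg
Nr3c1 and Zbtb16 were not matched in the promoter table.

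The receptor genes differed between the fractions in opposite directions. Nr3c1, on chromosome 18, was at 85.6 to 186 CPM with a median of 147 in the homogenates of water mice and at 230 to 332 CPM with a median of 287 in their isolated cells. The lowest isolated library stood above the highest homogenate. The fitted difference was 1.78-fold (95% interval 1.51 to 2.09; log2 0.83 ± 0.11, SE; adjusted p = 1.86e-07, edgeR's quasi-likelihood test with Benjamini-Hochberg adjustment over 13434 genes). In ethanol mice it was 1.73-fold (1.55 to 1.93), and again the groups did not overlap.

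Nr3c2 went the other way. Its homogenates from water mice ranged from 37.9 to 80.2 CPM with a median of 45.8, and the isolated cells from 13.5 to 43.2 CPM with a median of 32.2. The ranges touched, but the isolated cells were the lower sample in 10 of 10 water mice and in 10 of 10 ethanol mice. Nr3c2 was 1.75-fold lower in the isolated cells of water mice (95% interval 1.39 to 2.21; edgeR adjusted p = 5.60e-05) and 2.01-fold lower in those of ethanol mice (1.55 to 2.60; adjusted p = 1.73e-05). In these bulk samples, fewer cells of a type and less RNA per cell cannot be told apart.

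Fkbp5 encodes a co-chaperone that lowers the hormone affinity of the receptor and is itself induced by the receptor. It was the one gene of the 10 with no call between the fractions. Homogenates of water mice lay at 21.03 to 54.1 CPM with a median of 31.7, and their isolated cells at 20.9 to 67.2 CPM with a median of 33.8. In ethanol mice the medians were 27.1 CPM in homogenate and 32.7 CPM in isolated cells. The fractions overlapped almost completely in both treatments, and the isolated cells were higher in 6 of 10 water mice and 5 of 10 ethanol mice. The fold of isolated cells over homogenate was 1.15 (95% interval 0.881 to 1.499; edgeR adjusted p = 0.327) in water mice and 1.06 (0.787 to 1.43; adjusted p = 0.715) in ethanol mice.

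**Figure D1:**
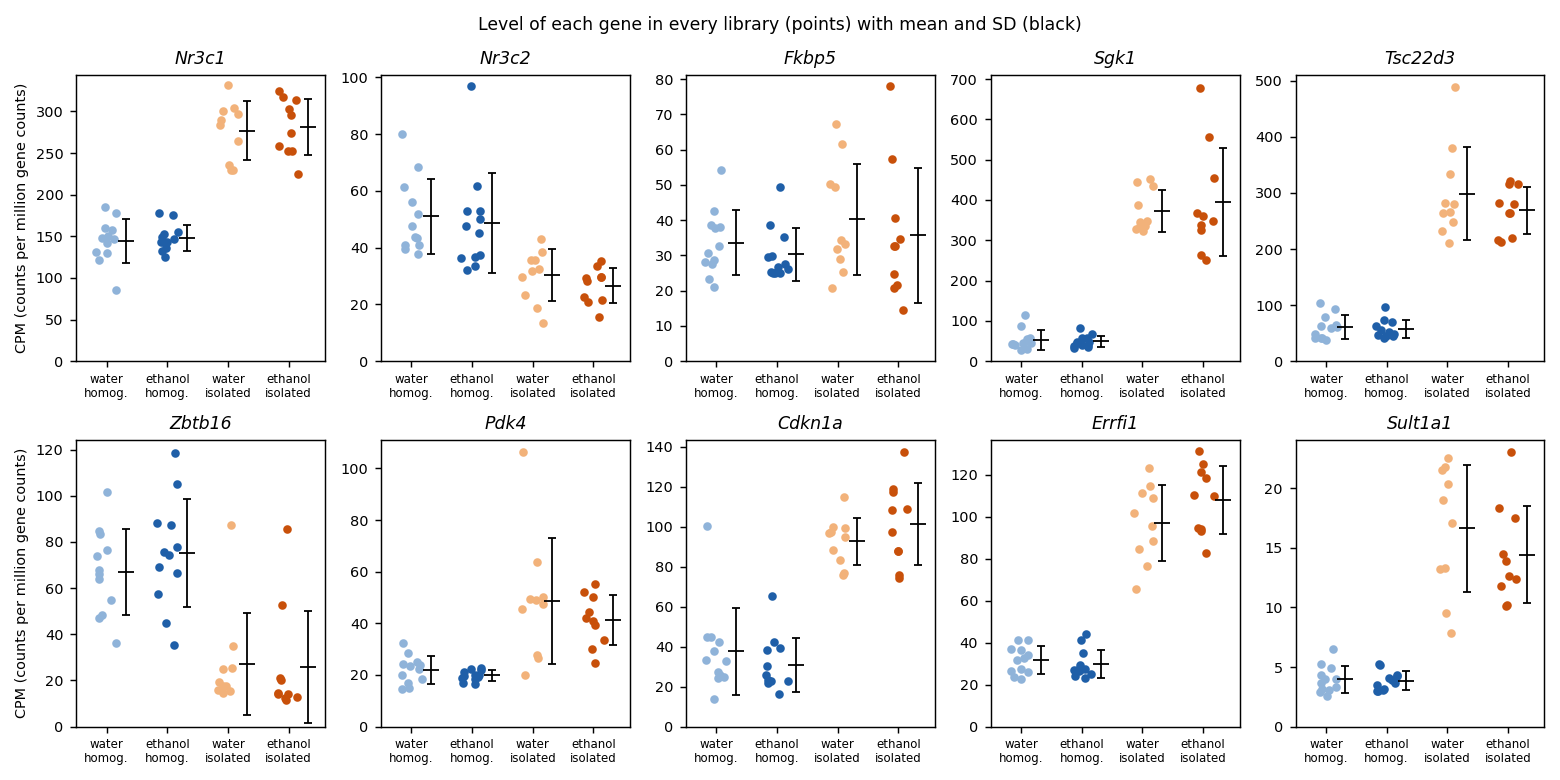
Level of each of the 10 genes in CPM on linear axes from 0, for 12 homogenates of water mice, 12 of ethanol mice, 10 isolated fractions of water mice and 10 of ethanol mice. Points are libraries, and black marks are group means with SD. Sgk1, Tsc22d3, Errfi1, Sult1a1 and Nr3c1 separate by fraction without overlap in both treatments, Zbtb16 and Nr3c2 lie lower in isolated cells, and water and ethanol groups overlap for every gene.

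Sgk1, the serum- and glucocorticoid-regulated kinase that phosphorylates NEDD4L and FOXO proteins, differed most between the fractions. It ran from 28.0 to 114 CPM with a median of 46.2 in the homogenates of water mice and from 323 to 453 CPM with a median of 347 in their isolated cells. In ethanol mice the homogenates spanned 32.7 to 81.7 CPM with a median of 45.7, and the isolated cells 251 to 679 CPM with a median of 354. Even the lowest isolated library was above every homogenate. The kinase gene was 6.55-fold higher in the isolated cells of water mice (95% interval 5.02 to 8.56; edgeR adjusted p = 1.15e-12) and 7.32-fold higher in those of ethanol mice (5.75 to 9.31; adjusted p = 4.56e-14).

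Tsc22d3 encodes GILZ, a leucine zipper protein through which glucocorticoids restrain inflammatory transcription factors. Its level was 37.6 to 103 CPM with a median of 60.1 in water homogenates and 211 to 489 CPM with a median of 274 in the isolated cells of water mice. The 2 ranges lay far apart, with 4.57-fold higher levels in isolated cells (95% interval 3.55 to 5.90; edgeR adjusted p = 2.10e-11). In ethanol mice homogenates lay at 41.9 to 97.2 CPM and isolated cells at 213 to 321 CPM, a 4.29-fold difference (3.59 to 5.13; adjusted p = 1.48e-14).

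Zbtb16, which encodes the zinc finger repressor PLZF, was lower in isolated cells. It ran from 36.0 to 102 CPM with a median of 66.98 in water homogenates and from 14.4 to 87.3 CPM with a median of 18.3 in the isolated cells. In ethanol mice homogenates spanned 35.4 to 118 CPM with a median of 75.02, and isolated cells 11.4 to 85.6 CPM with a median of 14.3. The isolated cells of water mouse 74 and of ethanol mice 65 and 66 reached the range of the homogenates, and all other isolated libraries lay below it. Zbtb16 was 2.47-fold lower in the isolated cells of water mice (95% interval 1.67 to 3.66; edgeR adjusted p = 0.000116) and 3.42-fold lower in those of ethanol mice (2.15 to 5.45; adjusted p = 2.86e-05). Leaving out these 3 mice, a choice made after seeing the data, moved the log2 difference from -1.31 to -1.73 in water mice and from -1.78 to -2.41 in ethanol mice.

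Pdk4, Cdkn1a, Errfi1 and Sult1a1 were higher in the isolated cells of both treatments. Errfi1, which encodes the EGF receptor inhibitor MIG6, spanned 22.6 to 41.3 CPM in water homogenates and 65.4 to 123 CPM in isolated cells, with no overlap and a 2.85-fold difference (95% interval 2.40 to 3.39; edgeR adjusted p = 6.82e-12). Sult1a1, a phenol sulfotransferase gene, was the least abundant, at 2.59 to 6.49 CPM in water homogenates and 7.83 to 22.6 CPM in isolated cells. It was 4.001-fold higher in isolated cells (3.08 to 5.19; adjusted p = 9.19e-11). Pdk4, a kinase that switches off pyruvate dehydrogenase, was 2.13-fold higher (1.60 to 2.83; adjusted p = 2.01e-05), with isolated libraries at 19.9 to 107 CPM against homogenates at 14.4 to 32.5 CPM. Cdkn1a, which encodes the cyclin-dependent kinase inhibitor p21 and is also a target of p53, was 2.31-fold higher (1.71 to 3.13; adjusted p = 1.30e-05). Its ranges in water mice met because the homogenate of mouse 68 stood at 100.2 CPM while the other water homogenates reached 44.7 CPM at most. In ethanol mice Errfi1 was 3.32-fold, Sult1a1 3.36-fold, Cdkn1a 2.98-fold and Pdk4 1.91-fold higher in isolated cells, with edgeR adjusted p-values of 9.58e-15, 3.68e-11, 5.55e-08 and 1.56e-09.

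Thus 7 of the 10 genes were higher and 2 were lower in isolated cells than in homogenate, in water mice and again in ethanol mice, which are other animals. The background is high: 77.5% of all genes tested were called between the fractions in water mice (37.2% higher, 40.3% lower) and 81.7% in ethanol mice (39.8% higher, 41.9% lower), so 9 of 10 called is not far from what any genes show here. The median log2 difference of the 10 genes was 1.15 in water and 1.25 in ethanol mice, beside -0.05 and -0.04 over all genes tested. Ranges that did not overlap were found for 5 of the 10 genes in water mice and 7 in ethanol mice, where Pdk4 and Cdkn1a joined the 5, against 37.4% and 47% of all genes. The fold changes of the 10 genes are drawn beside those of ethanol in the plot of fold changes.

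Other properties of the isolated fraction moved with these differences. Of 14 immediate early genes known to be switched on by tissue dissociation, such as Fos and Junb, 13 were higher in the isolated cells of water mice. Their median log2 difference was 4.13. The 14 genes summed to 12234 to 20749 CPM in the isolated cells of water mice and to 1026 to 2779 CPM in the homogenates of water mice. Over both treatments, the summed oligodendrocyte markers were at 12823 to 26167 CPM in isolated cells against 1019 to 9966 CPM in homogenates. The summed neuronal markers were at 171 to 1037 CPM against 6860 to 9978 CPM. No marker of these 3 lists was at 0 throughout a group. Dissociation, bead capture and cell type changed together between the fractions and cannot be told apart for any of the 10 genes.

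Per kilobase of annotated exon, the order of the genes differed between the fractions. In homogenate Nr3c1 stood first, at 18.8 ± 3.44 CPM per kb in water mice (SD, n = 12), followed by Tsc22d3 at 14.1 ± 4.86 and Zbtb16 at 12.7 ± 3.51. The last 2 did not differ beyond their spread and changed places in ethanol mice. Fkbp5, at 3.55 ± 0.973, and Sult1a1, at 2.64 ± 0.753 CPM per kb, were lowest in water homogenates. In the isolated cells of water mice Sgk1 came first with 76.2 ± 10.6 CPM per kb (SD, n = 10), ahead of Tsc22d3 with 68.8 ± 19.0 and Nr3c1 with 36.0 ± 4.61. Sgk1 and Tsc22d3 lay within their spread of each other, as did Errfi1 with 27.1 ± 5.11 and Cdkn1a with 26.1 ± 3.33. At the bottom of the order in isolated cells were Zbtb16, Nr3c2 and Fkbp5, at 5.15 ± 4.18, 4.68 ± 1.42 and 4.25 ± 1.66 CPM per kb, which did not differ beyond their spread. The exon length is that of all annotated exons together, so genes with long unused exons are set too low.

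No difference between ethanol and water mice passed the test for any of the 10 genes. By edgeR's quasi-likelihood test 0 of 10 were called in isolated cells, where 0% of 11122 genes were called, and 0 of 10 in homogenate, where 0% of 13576 genes were called. At an unadjusted p under 0.05 there were 600 genes in isolated cells and 467 in homogenate, with 0 of the 10 among them in either. DESeq2 called 20 and 0 genes and limma's voom 0 and 0 genes, again without any of the 10. The ranges of water and ethanol libraries overlapped for every one of them.

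Neither receptor gene was called for ethanol. Nr3c1 had a median of 287 CPM in isolated cells of water mice and 285 CPM in those of ethanol mice, and the log2 difference was 0.01 (95% interval -0.17 to 0.19; edgeR adjusted p = 0.999). In homogenate it was 0.05 (-0.15 to 0.25; adjusted p = 0.979). Nr3c2 had estimates of -0.24 (-0.59 to 0.11; adjusted p = 0.989) in isolated cells and -0.05 (-0.38 to 0.28; adjusted p = 0.990) in homogenate.

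The estimates of the targets had either sign. Fkbp5 differed by -0.25 on the log2 scale in isolated cells (95% interval -0.78 to 0.27; edgeR adjusted p = 0.997) and by -0.13 in homogenate (-0.41 to 0.15; adjusted p = 0.979). Sgk1 had 0.05 (-0.24 to 0.35) in isolated cells and -0.10 (-0.50 to 0.31) in homogenate, and Tsc22d3 had -0.18 (-0.43 to 0.07) and -0.08 (-0.43 to 0.27). Zbtb16 was the least certain in isolated cells, with -0.26 and an interval from -1.16 to 0.64, and had 0.18 (-0.19 to 0.55) in homogenate. Differences within these intervals remain compatible with the data of these mice at this depth, and the smallest detectable difference was not computed.

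For the other 4 genes the intervals also included 0. Pdk4 had the largest estimate of the 10 in isolated cells, -0.30 (95% interval -0.72 to 0.11), and the lowest unadjusted p there, 0.136 (edgeR adjusted p = 0.988). Without water mouse 73 this estimate was -0.07, no longer the largest. Its isolated libraries spanned 19.9 to 107 CPM in water and 24.5 to 55.2 CPM in ethanol mice, the second range lying inside the first. The astrocyte markers had estimates below 0 in the same comparison in 13 of 13 cases, with a median of -0.23 and 0 called. So had 10 of 10 microglia and 10 of 10 neuronal markers. Endothelial markers were above 0 in 10 of 10 cases, mural ones in 8 of 9 (median 0.49) and oligodendrocyte ones in 9 of 11, again with 0 called. The part of cell content in the Pdk4 estimate was not tested. Cdkn1a, Errfi1 and Sult1a1 had estimates of 0.12 (-0.11 to 0.34), 0.14 (-0.08 to 0.35) and -0.26 (-0.65 to 0.13) in isolated cells. In homogenate Pdk4 had -0.13 (-0.36 to 0.09), Cdkn1a -0.25 (-0.78 to 0.27), Errfi1 -0.08 (-0.31 to 0.16) and Sult1a1 0.00 (-0.29 to 0.29). The Cdkn1a estimate was the farthest from 0 of the 10 in homogenate and had the opposite sign in isolated cells.

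Whether ethanol acted differently in the fractions was tested as an interaction in 1 model of all 4 groups. It was called for 0 of the 10 genes and for 0% of 14087 genes by edgeR, with 834 genes and 0 of the 10 at an unadjusted p under 0.05. DESeq2 called 2 genes and voom 0. The interaction estimates of the 10 genes ran from -0.48 (95% interval -1.36 to 0.40) for Zbtb16 to 0.36 (-0.25 to 0.98) for Cdkn1a. Between these lay Sult1a1 with -0.26, Nr3c2 with -0.20, Pdk4 with -0.17, Fkbp5 with -0.13, Tsc22d3 with -0.11, Nr3c1 with -0.05, Sgk1 with 0.14 and Errfi1 with 0.21, each with an interval that included 0.

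**Figure D2:**
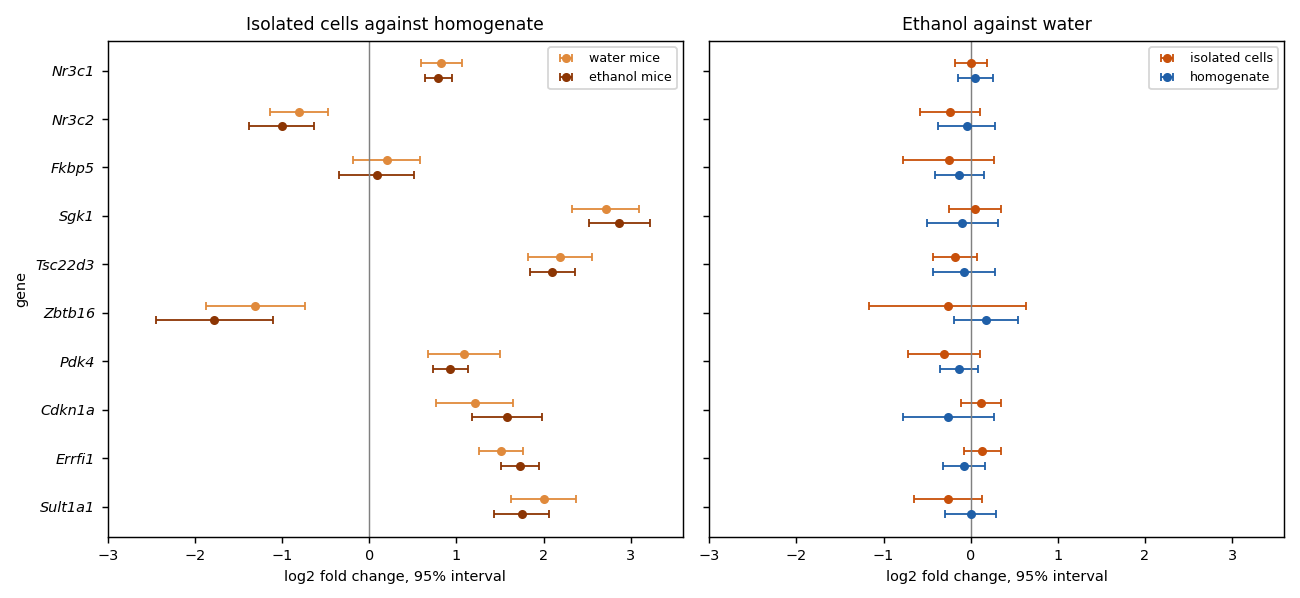
Log2 fold changes with 95% intervals from edgeR for the 10 genes, isolated cells over homogenate on the left (water and ethanol mice) and ethanol over water on the right (isolated cells and homogenate). On the left Fkbp5 crosses 0 in both treatments, Nr3c2 and Zbtb16 lie below 0 and the other 7 genes above it, and on the right every interval crosses 0.

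Single mice of a group differed widely in the target genes, and several of these differences ran together. Correlations between the genes were computed over mice within each fraction on log2 CPM, after subtracting the mean of each treatment group, for 45 pairs per fraction. In the 20 isolated libraries 6 pairs passed an adjusted p of 0.05 (two-sided permutation within treatment, 100000 resamples, Benjamini-Hochberg over the 45 pairs). Fkbp5, Sgk1 and Zbtb16 formed a trio with r of 0.76 for Sgk1 and Zbtb16 (rho 0.70; permutation adjusted p = 0.00765), 0.75 for Fkbp5 and Sgk1 (rho 0.72; adjusted p = 0.00765) and 0.71 for Fkbp5 and Zbtb16 (rho 0.62; adjusted p = 0.0099). Tsc22d3 was tied to Zbtb16 with r of 0.61 (rho 0.58; permutation adjusted p = 0.0402) and to Fkbp5 with 0.58 (rho 0.59; adjusted p = 0.04485), and the receptors Nr3c1 and Nr3c2 to each other with 0.60 (rho 0.50; adjusted p = 0.04485). The receptor pair had an r of 0.82 in water mice and 0.29 in ethanol mice taken alone, a difference that was not tested.

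Some of these ties in isolated cells moved with few animals. Mouse 74 of the water group had 87.3 CPM of Zbtb16, 67.2 CPM of Fkbp5 and 434 CPM of Sgk1 in its isolated cells. Ethanol mouse 66 had 85.6, 57.4 and 679 CPM of the same genes, and ethanol mouse 65 had 52.8, 78.1 and 556 CPM. No other isolated library exceeded 35.0 CPM of Zbtb16. Without these 3 mice, left out after seeing the data, 0 of 45 pairs passed over 17 mice, and the r of the trio was 0.39 for Sgk1 and Zbtb16, 0.56 for Fkbp5 and Sgk1 and 0.36 for Fkbp5 and Zbtb16. Fkbp5 with Tsc22d3 had 0.45. Tsc22d3 with Zbtb16 had 0.58 and Nr3c1 with Nr3c2 0.62, close to their values over 20 mice, and the lost calls of these pairs do not show that they depend on the 3 mice. Leaving out instead the 2 libraries farthest from the median of the first gene kept 4 of the 6 pairs past the threshold, Fkbp5 with Zbtb16 at 0.75, with Sgk1 at 0.74 and with Tsc22d3 at 0.68, and Tsc22d3 with Zbtb16 at 0.64. Sgk1 with Zbtb16, at 0.50, and Nr3c1 with Nr3c2, at 0.54, no longer passed. By rank correlation 2 pairs passed, Sgk1 with Zbtb16 and Fkbp5 with Sgk1. Both treatments are among the 3 mice, and the labels give no batch or cage that they share.

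In the 24 homogenates other pairs stood out. Sgk1 and Tsc22d3 had an r of 0.81 (rho 0.67; permutation adjusted p = 0.0009), Fkbp5 and Errfi1 of 0.74 (rho 0.62; adjusted p = 0.0024) and Nr3c2 and Fkbp5 of 0.71 (rho 0.53; adjusted p = 0.0024). By rank correlation the first of these passed (adjusted p = 0.0365). Sgk1 and Tsc22d3 kept an r of 0.71 without the 2 libraries farthest from the median, and the pair had an r of 0.90 in water mice and 0.65 in ethanol mice taken alone. Nr3c2 with Fkbp5 dropped to 0.47 without the 2 farthest libraries and no longer passed. The pairs that passed in homogenate and in isolated cells were different pairs, and whether a correlation differs between the fractions was not tested.

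**Figure D3:**
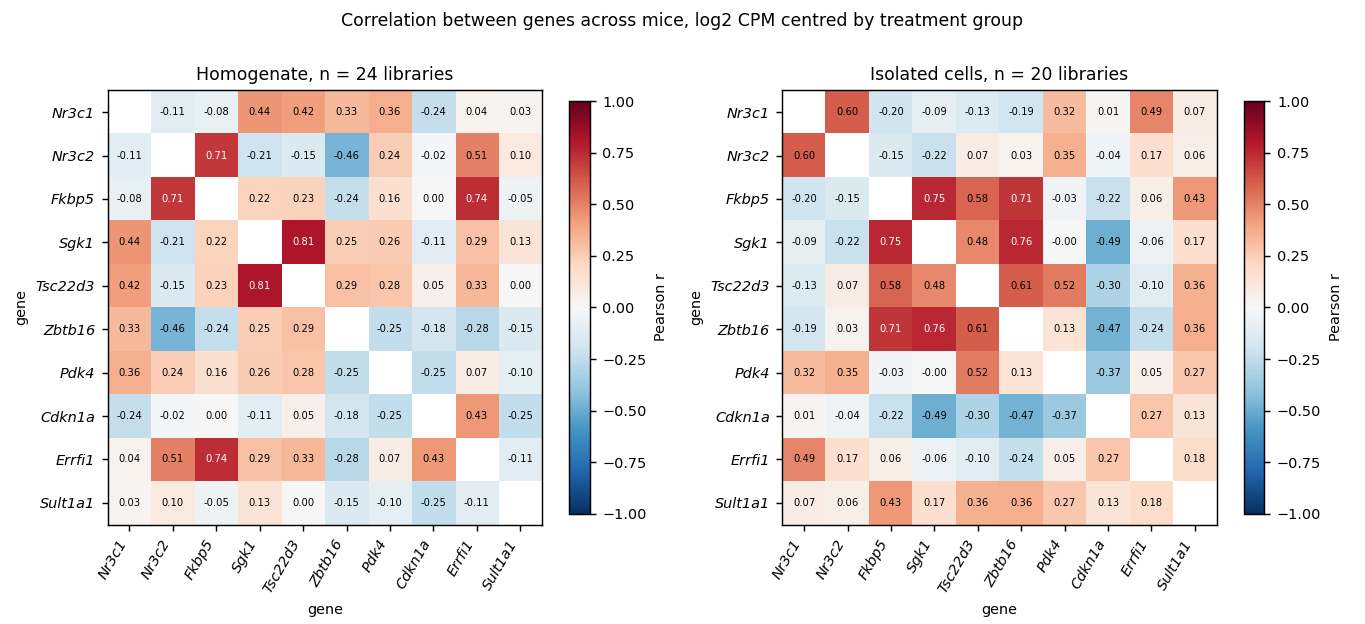
Pearson r between each pair of the 10 genes across mice, on log2 CPM centred by treatment group, in 24 homogenates (left) and 20 isolated fractions (right). Red is positive and blue negative. Sgk1 with Tsc22d3 stands out at 0.81 in homogenate, and Fkbp5, Sgk1 and Zbtb16 have 0.71 to 0.76 in isolated cells, where their r was 0.36 to 0.56 without mice 65, 66 and 74.

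The homogenates with much Sgk1 and Tsc22d3 were few. Water mouse 73 had 114 CPM of Sgk1 and 103 CPM of Tsc22d3, water mouse 74 had 86.4 and 92.6 CPM, and ethanol mouse 66 had 81.7 and 97.2 CPM. These were the highest 3 values of both genes over the 24 homogenates. The homogenate of mouse 73 also had the highest summed oligodendrocyte markers, 9966 CPM, and Sgk1 had an r of 0.60 with that sum over the homogenates (rho 0.49; permutation adjusted p = 0.150 over 240 relations of a gene with a marker list or with depth). The part of oligodendrocyte content in the Sgk1 level was not tested further.

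The question whether a mouse with a high level in one fraction also had it in the other was asked after the values had been seen. Homogenate and isolated cells of a mouse came from 1 suspension but were handled, sequenced and counted as separate libraries, with the homogenate taken before dissociation. For Tsc22d3 the fractions ran together over the 20 mice, with r of 0.83 (rho 0.78; permutation p = 1e-05, the smallest that 100000 resamples can give; adjusted p = 0.0001 over the 10 genes). Mouse 73 was highest in both, at 103 CPM in homogenate and 489 CPM in isolated cells. Mouse 74 had 92.6 and 380 CPM, and mouse 68, the lowest in both, had 37.6 and 211 CPM. Without the 2 mice farthest from the median in homogenate r was 0.78, and without mice 65, 66 and 74 it was 0.84.

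Among 9477 genes measured well enough in both fractions, the median of this same-mouse r was 0.07, and Tsc22d3 had the highest value of all. Next came Chordc1 with 0.79, Zfp955b with 0.73, Plaa with 0.73 and Abcd3 with 0.73. Sgk1 had an r of 0.49 (rho 0.49; permutation adjusted p = 0.0478 by r and 0.129 by rank), which was 0.68 without the 2 mice farthest from the median and 0.14 without mice 65, 66 and 74. Zbtb16 had 0.34, Pdk4 0.27 and Fkbp5 0.23, none past the threshold. Nr3c1, Cdkn1a and Sult1a1 had values of -0.27, -0.21 and -0.20, also not past it.

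**Figure D4:**
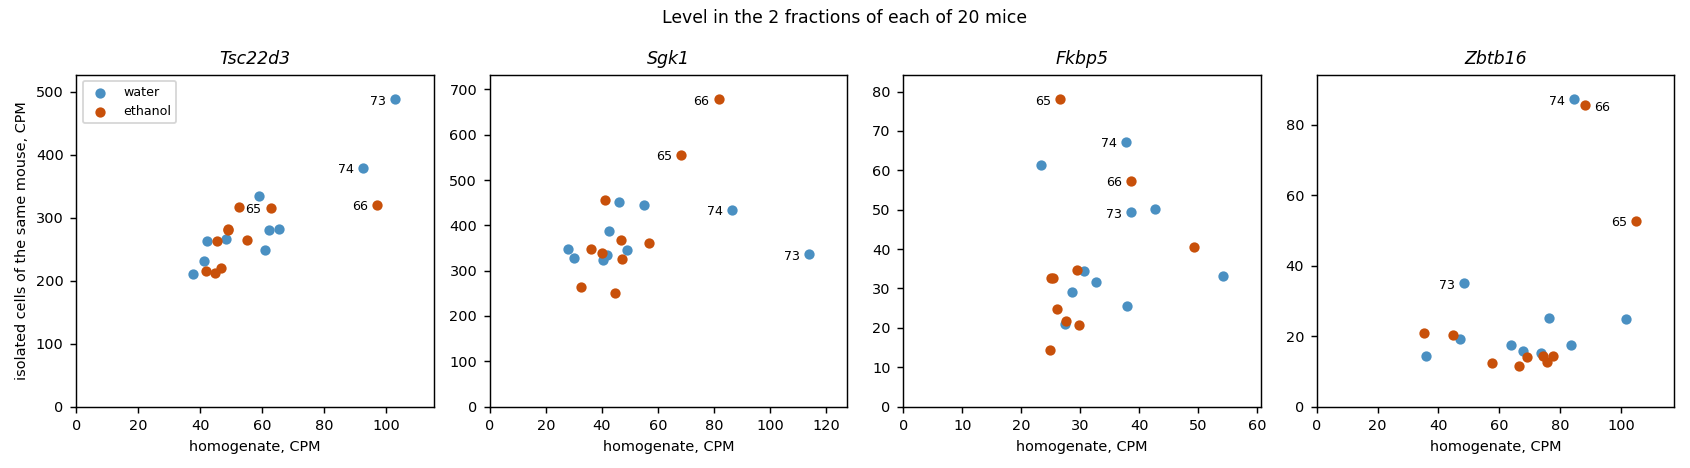
Level in isolated cells against level in homogenate of the same mouse, in CPM on linear axes from 0, for Tsc22d3, Sgk1, Fkbp5 and Zbtb16 in 10 water and 10 ethanol mice. Numbers name mice 65, 66, 73 and 74. Tsc22d3 rises with its homogenate level up to mouse 73, while Fkbp5 and Zbtb16 scatter and mice 65, 66 and 74 lie at the top for Zbtb16.

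Further genes known to be induced by glucocorticoids in brain or other tissues were set beside Tsc22d3. Of 21 such genes measured in both fractions, 18 had a positive same-mouse r with a median of 0.36, where 59.9% of all genes were positive. Mt2, a metallothionein gene, had 0.71 and ranked 8 of 9477, Arl4d had 0.66, Hif3a 0.62 and Per1, a clock gene with a glucocorticoid response, 0.57. The lowest of the 21 was Nfkbia, which encodes the NF-kB inhibitor, with -0.13. Within a fraction, the correlation with Tsc22d3 across mice was positive for 19 of 22 of these genes in homogenate, with a median r of 0.42, and for 18 of 22 in isolated cells, with a median of 0.43. Over all genes 43.3% and 59.01% were positive. For Zbtb16 the list was mixed, with 15 of 22 positive in isolated cells, against 49.98% of all genes. Hif3a led there at 0.81, then Plin4, a lipid droplet gene, at 0.79. In homogenate 7 of 22 were positive, near the 37.58% over all genes, and Mt1 had -0.77 and Mt2 -0.72. Fkbp5 had 13 of 22 positive in isolated cells and 16 of 22 in homogenate, against 48.67% and 52.0% of all genes. Sgk1 had 15 and 18 of 22, against 48.15% and 47.27%. These values are descriptions, and the genes of a library share its depth and cell content.

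**Figure D5:**
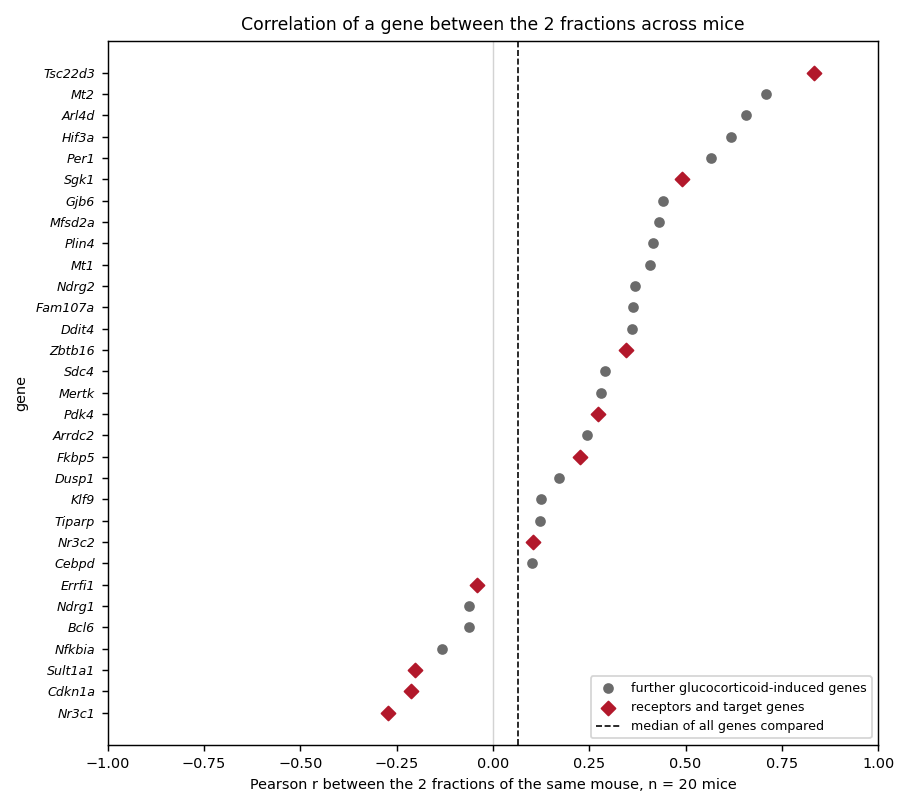
Pearson r between the homogenate and the isolated cells of the same mouse over 20 mice, for the 10 genes (red diamonds) and 21 further glucocorticoid-induced genes (grey points), on log2 CPM centred by treatment group. The dashed line is the median of 9477 genes, 0.07. Tsc22d3 lies at 0.83, above Mt2, Arl4d, Hif3a and Per1, and Nr3c1 is lowest at -0.27.

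Some of the spread between mice moved with the summed cell type markers or immediate early genes. In homogenate Cdkn1a followed the summed immediate early genes with r of 0.80 (rho 0.81; permutation adjusted p = 0.0036 over 240 relations; 0.68 without the 2 farthest libraries). The homogenate of mouse 68 had the highest Cdkn1a, 100.2 CPM, and the highest immediate early sum, 2779 CPM. Homogenates were taken before dissociation, and the source of this relation was not tested. In isolated cells Pdk4 followed the summed astrocyte markers with r of 0.85 (rho 0.71; adjusted p = 0.0036 by r and 0.072 by rank) and went against the microglia markers with r of -0.78 (rho -0.76; adjusted p = 0.0224). Mouse 73, with the most Pdk4 at 107 CPM, had the highest astrocyte sum, 28901 CPM, and the lowest microglia sum, 5372 CPM. For Tsc22d3 in isolated cells the r with the astrocyte sum was 0.58 (adjusted p = 0.270) and with the log2 total of gene counts 0.59 (adjusted p = 0.270).

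The genes whose homogenate pattern was most like that of each of the 10 were taken by the highest r over the 24 homogenates. For Tsc22d3 they were Sgk1 with 0.81, Adipor2 with 0.80 and Rin2 with 0.80, and for Sgk1 they were Tsc22d3, Adipor2 with 0.79 and Dnajc3 with 0.78. Adipor2 also had r of 0.68 with Tsc22d3 and 0.62 with Sgk1 in isolated cells, while Rin2 had 0.00 with Tsc22d3 there. Nr3c1 was most like Camk4 with 0.90, A830010M20Rik with 0.89 and Ttl with 0.89. Nr3c2 was most like Wipf3 with 0.87, Ncdn with 0.84 and Ptk2b with 0.82. Cdkn1a was most like Egr1, an immediate early gene, with 0.86, followed by Ptcd1 with 0.83 and Spty2d1 with 0.82. The leading gene was Ube2g2 with 0.85 for Fkbp5, Efcab6 with 0.83 for Zbtb16, Scara3 with 0.77 for Pdk4, Prps1l3 with 0.89 for Errfi1 and Cab39l with 0.70 for Sult1a1. For all of these except Adipor2 and Scara3 with 0.73, the r in isolated cells was at most 0.48. Camk4, Wipf3 and Efcab6 averaged only 17.35, 7.75 and 3.2 counts per isolated library, so a low r there says little. The genes were picked by their r in homogenate, and whether likeness differs between the fractions was not tested.

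Lists of genes around the receptors are read against the 77.5% of all genes called between the fractions in water mice (37.2% higher, 40.3% lower). In ethanol mice the share was 81.7% (39.8% higher, 41.9% lower). Of 23 tested genes in the further glucocorticoid-induced list, 22 were higher and 1, Klf9, was lower in the isolated cells of water mice, with a median log2 difference of 1.43. In ethanol mice 21 were higher and 1, again Klf9, was lower. The lowest p-values in water mice were those of Nfkbia, of Dusp1, a MAP kinase phosphatase, and of Mertk, a receptor of phagocytosis. Nfkbia was higher by 4.42 ± 0.13 (log2, SE; edgeR adjusted p = 7.22e-20), Dusp1 by 3.94 ± 0.12 and Mertk by 2.73 ± 0.12. Nfkbia and Dusp1 are also known as genes of the early response to cell stress, and their relation to the immediate early genes above was not tested. Klf9 fell by 0.82 ± 0.20 (SE; adjusted p = 0.000529) in water mice. Exons of Dusp1 and Ergic1 overlap on opposite strands.

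In the receptor's chaperone complex 7 of 12 genes were higher and 1 was lower in isolated cells of water mice, and 7 and 2 in ethanol mice. In water mice the share called in either direction was no larger than over all genes. The share that was higher was above the 37.2% of all genes, and the share that was lower was under the 40.3%. Dnajb1, an HSP40 co-chaperone, was higher by 1.68 ± 0.13 (log2, SE; edgeR adjusted p = 2.48e-12), Hspa8 by 0.91 ± 0.10 and Hsp90aa1 by 0.57 ± 0.10. Bag1, a nucleotide exchange factor of HSP70, fell by 0.86 ± 0.12 (adjusted p = 5.77e-07). Of 12 coregulators 3 were higher and 6 lower in water mice, with the coactivators Ncoa3 at 1.23 ± 0.09 and Ncoa1 at -0.65 ± 0.11 on opposite sides. These 9 of 12 are close to the share over all genes, and the median of the list was -0.19.

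Enzymes and transporters that set the hormone level in a cell were higher in isolated cells wherever they could be tested in water mice, in 6 of 6 cases. In ethanol mice 6 of 7 were higher. Over all genes 37.2% were higher in water mice and 39.8% in ethanol mice. H6pd, which feeds the corticosterone-regenerating enzyme HSD11B1 with NADPH, was higher by 1.60 ± 0.11 (log2, SE; edgeR adjusted p = 6.41e-13), and the steroid exporter genes Abcb1a and Abcb1b, which are highly similar to each other and may share reads, by 1.36 ± 0.11 and 1.82 ± 0.21. Hsd11b1 itself, named after its values were seen, was higher by 1.49 ± 0.17. Genes of the CRH system were lower in 3 of 3 testable cases in water mice and 3 of 4 in ethanol mice. Over all genes 40.3% and 41.9% were lower. In isolated cells alone 0 of the 9 listed genes passed the low-count filter. Those tested between the fractions therefore passed it through their homogenate counts, so a lower call was largely set in advance. Crhr1, the main CRH receptor of cortex, was at 36.7 ± 26.9 CPM in water homogenates (SD, n = 12) and 2.27 ± 2.43 CPM in isolated cells (SD, n = 10). Crh itself had 0 counts in 9 of 10 isolated libraries of water mice and 6.97 ± 5.22 CPM in their homogenates.

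Among substrates of SGK1 and the sodium channel it acts on, 1 of 5 tested genes was higher and 3 were lower in isolated cells of both treatments. The share called was close to that over all genes, 77.5% in water mice and 81.7% in ethanol mice. Foxo1 was higher by 1.17 ± 0.20 (log2, SE; edgeR adjusted p = 5.85e-06) in water mice, and Nedd4l, the ubiquitin ligase through which SGK1 is known to act on sodium channels, fell by 2.21 ± 0.11 (adjusted p = 5.20e-16). Both share exon positions with a gene on the opposite strand. Between ethanol and water, 0 genes of any of these lists were called in either fraction, and the lowest unadjusted p was 0.00579, for Mt2 in isolated cells, with a log2 difference of -0.71 ± 0.24 (edgeR adjusted p = 0.565).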

How the data were processed

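Poly(A) RNA libraries, made per the labels with a directional kit, were processed by the authors with HTSeq 0.5.3p9, Bowtie2 2.2.5, cutadapt 1.8, Picard 1.141, bcl2fastq 2.17 and DESeq2 on mm10, per the submitters' processing notes. The authors deposited unnormalized read counts by gene symbol, with 5 tally lines that were left out. Annotation, strand setting and duplicate handling: not given in the sources used here. The isolated fraction of water mouse 72 was not analysed here. CPM is the count divided by the library's total gene counts. Fold changes were fitted on all genes with edgeR 4.0.16 (R 4.3.3, TMM scaling, its filter on low counts, robust quasi-likelihood test) and called at an adjusted p under 0.05. SEs and 95% intervals include the spread between mice. Alternatives used DESeq2 1.42.0, limma 3.58.1, other scalings, filters, depths and libraries. Correlations used log2 CPM with a prior count of 2. Promoter letters were read from the RefSeq table of GRCm38.p6. The script was tested on simulated data.

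The 10 genes, the gene lists and the tests were chosen with earlier results of these data known. All 10 genes are named in each comparison, and of each pathway list up to 4 called genes with the lowest p in each direction, or otherwise the 2 with the lowest p, could be named. For likeness, the 3 genes with the highest r and at least 20 counts per homogenate on average were taken. Fractions of a mouse with the same number come from the same animal, so the numbers pair them. The 20 pairs had a median correlation of their deviations of 0.05 (-0.04 to 0.16). Fractions of different mice were not correlated in this way, so this value does not test the pairing.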

Additional observations from a re-analysis of the deposited data

Results flagged for a closer look

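In the isolated cells of water mice, Zbtb16 stood at 87.3 CPM in mouse 74, far from the next highest library at 35.0 CPM. The gap between them was 0.716 of the whole range of the 10 libraries, enough to set a sample apart at this group size. The same mouse had the highest Fkbp5 of the group, 67.2 CPM.

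Pdk4 in the same group stood at 107 CPM in mouse 73, and the next highest library had 63.9 CPM, a gap of 0.492 of the range. That library also had the highest summed astrocyte markers and the highest Tsc22d3. The part of these in its Pdk4 level was not tested. The groups of 10 libraries were examined for each gene, 20 in all, and chance marks about 1 in 20 groups in this way. The groups of 12 libraries were not examined.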

How the results depend on the processing

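The counts of the 10 genes called, 9 and 9 between the fractions and 0, 0 and 0 for ethanol and its interaction, came out alike under every alternative run: other scalings, no filter, DESeq2, limma voom, no Rn45s, thinning to 504492 counts, no libraries under 1000000 counts, no mice 65, 66 and 74, and each library left out in turn (88 fits, 9 to 9 and 0 to 0; not run for the interaction). With the mouse as a block the paired fits called 9, 9 and 0, and the block changed no other call. All 1317 estimates of single genes stayed on their side of the threshold, and no called gene changed sign, though uncalled ones did, such as Fkbp5 between the fractions of ethanol mice (-0.25 to 0.18). Upper-quartile scaling moved the median gene by 0.10 (log2) between the fractions of water mice. The numbers of correlated pairs were less stable: 3 in homogenate became 1, and 6 in isolated cells became 2, by rank correlation, and 0 in isolated cells without mice 65, 66 and 74 (both chosen after seeing the data). Without the 2 farthest libraries 1 of the 3 homogenate pairs was lost and another pair, with a negative r, passed. Depth is low for some genes in isolated libraries, with as few as 6 counts of Sult1a1 and 8 of Zbtb16 in 1 library.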

Other observations

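Relatives of the 10 genes lay on both sides of the fraction comparison. In water mice 5 of 12 tested relatives were higher and 5 lower in isolated cells, and in ethanol mice 4 of 11 and 6, shares near those of all genes in water mice (37.2% higher, 40.3% lower). Over all genes of ethanol mice the shares were 39.8% and 41.9%. Tsc22d4 was higher by 1.79 ± 0.09 (log2, SE; edgeR adjusted p = 1.60e-16) and Tsc22d2 by 0.98 ± 0.12 in water mice, as was Tsc22d3, while Tsc22d1 fell by 1.17 ± 0.12 (adjusted p = 8.00e-10). Sgk2 was higher by 2.93 ± 0.33 (adjusted p = 4.78e-09), and Pdk3 fell by 1.02 ± 0.15 (adjusted p = 9.22e-07) where Pdk4 was higher. Sult4a1, a brain sulfotransferase, was at 412 ± 93.0 CPM in water homogenates (SD, n = 12) and 23.0 ± 13.1 CPM in isolated cells (SD, n = 10), opposite to Sult1a1. Cdkn1b, which encodes p27, was higher by 1.05 ± 0.09 (adjusted p = 1.43e-11), like Cdkn1a.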
